A study of Saccharomyces cerevisiae with 21 samples.

Results

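INO1 and 9 other genes of inositol and phospholipid synthesis in the yeast Saccharomyces cerevisiae are described across the strains of a study on the transcription of phosphate genes, coding and non-coding. The genes INO1, CHO1, CHO2, OPI3, ITR1, INO2, INO4, OPI1, PSD1 and INM1 were chosen by name with earlier results of these data known. Counts of members beside all genes are therefore a description. All 10 were found among the 7123 features with values. RNA of 21 cultures was sequenced in 2 series, and all strains were BY4741, a haploid MATa laboratory strain, or were derived from it. Series 1 held BY4741 (libraries 1 to 3), BY4741ΔP (written ΔP) and Tpho84-Tcyc1, with 3 cultures each. Series 2 held BY4741 (libraries 4 and 5), BY4741ΔU (written ΔU, 3 cultures), ume6Δ (3), pho4Δ (2) and pho84Δ (2). The labels do not state what ΔP, ΔU and Tpho84-Tcyc1 alter. Every culture grew at 30 °C in the same supplemented synthetic medium with 7.2 mM phosphate and 50 mM KCl, and the labels do not state its inositol content. Cultures of 1 strain were started from a single overnight culture, so the spread behind each p-value is that between sister cultures, which may be technical, rather than that between strains made independently.

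Yeast makes inositol from glucose 6-phosphate through INO1, the inositol 3-phosphate synthase, and joins it or serine to CDP-diacylglycerol to build phospholipids. In textbook accounts the activator pair Ino2 and Ino4 binds an upstream element called UASINO in these promoters, and the repressor Opi1 holds the pair back when inositol is plentiful. INO1 carries in addition an upstream repression site, URS1, at which Ume6 recruits the Sin3 and Rpd3 corepressor.

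The sequences upstream of the members show which genes hold these elements. They were read from the RefSeq genome of build R64, 5′ to 3′ on the strand of the gene. INO1 (YJL153C) lies at chrX:134332-135933 on the minus strand as 1 coding exon of 1602 bases. A window of 200 bases upstream of it, chrX:136034-136233, is shown first because it holds both elements. Beside them stand the 27 bases around each element of INO4, the only other member with both, and the UASINO element of CHO1 as an example of a member with that element alone. Capitals mark matches to the URS1 core (AGCCGCC, or GGCGGCT on the other strand) and to the UASINO core (TCACATG, or CATGTGA).
INO1 upstream: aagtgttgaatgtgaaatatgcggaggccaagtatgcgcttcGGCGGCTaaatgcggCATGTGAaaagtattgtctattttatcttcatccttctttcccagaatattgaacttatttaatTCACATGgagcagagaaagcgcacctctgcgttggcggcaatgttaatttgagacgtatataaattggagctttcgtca
INO4 URS1 core, chrXV:111901-111927: gagttaagagGGCGGCTtgaactaaaa
INO4 UASINO core, chrXV:111992-112018: aacaaaatatTCACATGtttttctcac
CHO1 UASINO core, chrV:208618-208644: ctttgagcttTCACATGgacccatcta

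In INO1 the URS1 core lay 258 to 252 bases before the start codon, and the UASINO cores lay 243 to 237 and 179 to 173 bases before it. In INO4 the URS1 core lay much nearer, 31 to 25 bases before the start codon, and the UASINO core 122 to 116 bases before it. Searched on both strands over the 500 bases upstream of 6019 genes, the UASINO core was found in 227 windows (3.77%) and in 7 of the 10 members. OPI3, OPI1 and INM1 did not hold these letters in that window. The shorter CATGTG, a part of the UASINO core, was found in 789 windows (13.1%) and in 8 members, OPI3 among them. The URS1 core was found in 249 windows (4.14%), among the members in INO1 and INO4 only, and both cores together in 12 windows (0.199%). The Pho4 site CACGTG was found in 374 windows (6.21%), among the members in OPI3 and INM1. None of the UASINO core, the URS1 core and the Pho4 site contains another. A match is a description of letters and not evidence of binding.

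Depth, recovered from the value of 1 read, was 10.98 to 49.8 M reads per library with a median of 17.9 M (M stands for 1e+06). In the strains named for a deletion the gene was nearly without reads: UME6 had 4, 0 and 2 reads in ume6Δ, PHO4 1 and 2 reads in pho4Δ, and PHO84 2 reads in each pho84Δ library. PHO84 also had 1 read in each pho4Δ library. Its RPM (reads of a gene per 1000000 reads of the library) was 0.807, 1.42 and 1.23 in Tpho84-Tcyc1. In ΔP it was 381, 306 and 427, and in BY4741 of series 1 it was 157, 135 and 76.2. In ΔU it was 250.4, 388 and 210, in ume6Δ 8.41, 83.8 and 89.8, and in BY4741 of series 2 136 and 130.3. Library 1 of ume6Δ thus lay apart from the other ume6Δ libraries in PHO84. The marker genes that BY4741 lacks (URA3, LEU2 and MET17) had 0 reads throughout, while HIS3, deleted in part, stood at 88.7 to 204 RPM. The MATa gene STE2 stood at 519 to 706 RPM and the MATa gene MFA1 at 34.8 to 203 RPM. The MATα gene MF(ALPHA)1 stood at 0.0646 to 1.24 RPM and the MATα gene STE3 at 0.373 to 5.66 RPM. No member shares bases with another annotated gene of R64, where 6044 of the 7123 features were found by identifier. The positions of the other features were not checked. The strand setting of the counting is not given in the sources used here, so sense and antisense reads of a member cannot be told apart.

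INO1 was among the most abundant RNAs of ume6Δ and far lower in every other strain. It reached 5065, 5565 and 5496 RPM in the 3 ume6Δ cultures, against 54.1 and 23.7 RPM in BY4741 of series 2. The ume6Δ libraries lie far above all others and the groups do not overlap: across the 18 libraries of the other strains INO1 ranged from 8.62 to 74.5 RPM with a median of 32.2. The mean rose from 38.9 ± 21.5 (SD, n = 2) to 5375 ± 271 RPM (SD, n = 3), a ratio of means of 138. On the log2(RPM + 1) scale the difference was 7.19 (SE 0.36, 95% interval 6.41 to 7.96, adjusted p = 1.57e-09 in limma), where an adjusted p under 0.05 is written as a call. INO1 took 0.507% to 0.557% of all reads in ume6Δ and at most 0.00745% elsewhere. It ranked 15, 11 and 11 among the 7123 features by RPM in the 3 ume6Δ libraries and between 2219 and 5212 in the others.

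**Figure D1:**
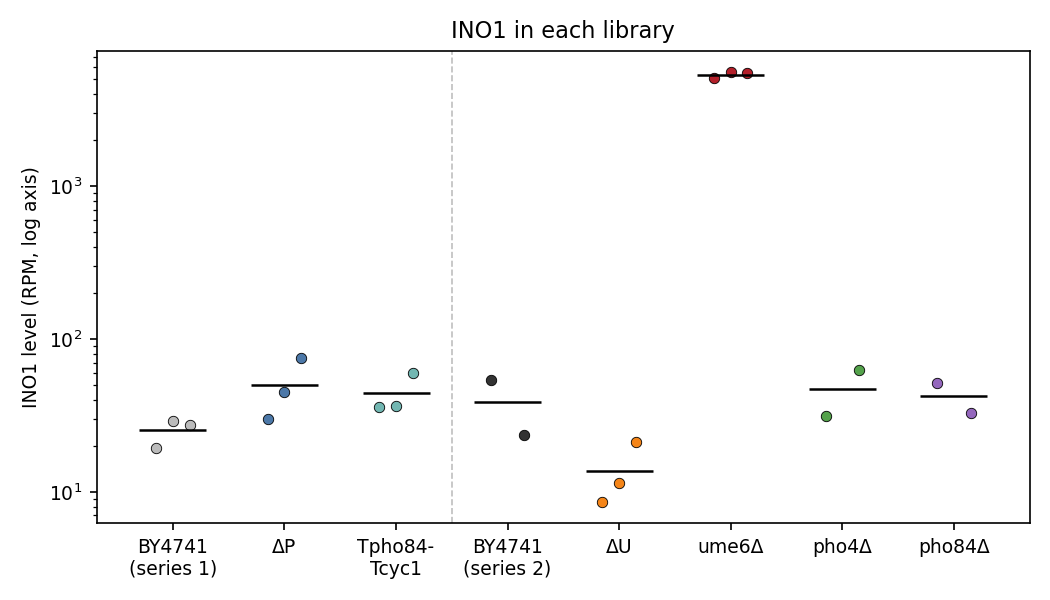
INO1 level in each library, in RPM on a log axis, with 1 point per library, a bar at the mean of each strain, and a dashed line between series 1 and series 2. The 3 ume6Δ libraries sit between 5065 and 5565 RPM, and the 18 other libraries between 8.62 and 74.5 RPM.

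The genes annotated in R64 on both sides of INO1 were not higher in ume6Δ. VPS35, a retromer subunit gene 396 bases away, stood at 173 ± 1.42 RPM in BY4741 of series 2 (n = 2) and 135 ± 8.19 RPM in ume6Δ (n = 3). SNA3, a membrane protein gene 438 bases away on the other side, stood at 77.2 ± 10.6 and 73.7 ± 4.53 RPM.

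Outside ume6Δ, ΔU was the strain with the lowest INO1. Its cultures held 8.62, 11.4 and 21.1 RPM, all under both BY4741 libraries of series 2, and the fall of INO1 was called in limma (log2 difference -1.42, SE 0.36, adjusted p = 0.00503). That call was kept in 11 of 12 alternatives. With BY4741 of series 1 as the control, which differs in series too, the difference was -0.91 (adjusted p = 0.0282 in limma). The call was lost without BY4741 library 4, where 1 control library is left and the difference was -0.84. In series 1 the BY4741 libraries held 19.3, 29.1 and 27.5 RPM of INO1. The ΔP libraries held 29.9, 45.2 and 74.5 RPM, and those of Tpho84-Tcyc1 35.9, 36.6 and 59.6 RPM. Every ΔP and Tpho84-Tcyc1 library was above every BY4741 library of that series, yet neither difference was called (ΔP 0.88, SE 0.28, adjusted p = 0.0719; Tpho84-Tcyc1 0.76, SE 0.28, adjusted p = 0.124). Without ΔP library 1 the ΔP difference was called (1.19, adjusted p = 0.0175). The values of pho4Δ (31.4 and 62.4 RPM) and pho84Δ (51.7 and 33.0 RPM) overlapped those of BY4741, with log2 differences of 0.30 (SE 0.39, adjusted p = 0.808) and 0.20 (SE 0.39, adjusted p = 0.873).

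By mean level the order from low to high was ΔU (13.7 ± 6.57 RPM), BY4741 of series 1 (25.3 ± 5.25), BY4741 of series 2 (38.9 ± 21.5), pho84Δ (42.3 ± 13.3), Tpho84-Tcyc1 (44.0 ± 13.5), pho4Δ (46.9 ± 21.9), ΔP (49.9 ± 22.7) and ume6Δ (5375 ± 271). Neighbours in this order overlap in their libraries at every step but the last, from ΔP to ume6Δ. INO1 also varied within strains, with a highest library 2.49 times the lowest in ΔP, 2.45 times in ΔU and 2.28 times in BY4741 of series 2, while the ume6Δ libraries differed least.

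In ume6Δ the other members moved little beside INO1. Of the 10 members, INO1 and INO4 were called higher and CHO1, CHO2 and OPI3 lower, so 5 of 10 were called where limma called 34.4% of the 5840 genes tested (23.1% higher and 11.3% lower). The libraries of 6 members did not overlap between the strains, as for 56.4% of all genes. The median log2 difference of the members was -0.06, against 0.04 over all genes tested. Across all genes 1349 were higher and 662 lower, or 1207 and 941 with RPM rescaled by TMM. The members' split of 2 higher and 3 lower was the same with that scaling.

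INO4, which encodes 1 partner of the activator, stood at 40.1, 36.7 and 39.9 RPM in ume6Δ and at 32.4 and 28.5 RPM in BY4741. All ume6Δ libraries were above both BY4741 libraries (log2 difference 0.34, SE 0.09, adjusted p = 0.0109), though INO4 was not called without BY4741 library 5 (0.25, adjusted p = 0.119). INO2, the other partner, was at -0.06 (adjusted p = 0.63) and the repressor gene OPI1 at -0.07 (adjusted p = 0.672), and both overlapped BY4741. The members that hold the URS1 core, INO1 and INO4, were the members called higher, with differences of 7.19 and 0.34. INO4 was also called higher in ΔP (0.43, adjusted p = 0.0157 in limma). It was not called in ume6Δ against ΔU (0.12, adjusted p = 0.255 in limma), where the libraries overlap. The part of the URS1 core in these differences was not tested, and the share of calls among all genes with the core was not counted.

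CHO1, OPI3 and CHO2, which act between CDP-diacylglycerol and phosphatidylcholine, were called lower in ume6Δ with all libraries. CHO1, the phosphatidylserine synthase gene, stood at 202, 218 and 225 RPM against 299 and 240.0 RPM in BY4741, every ume6Δ library below both (log2 difference -0.32, SE 0.09, adjusted p = 0.0189). OPI3, the methyltransferase gene of the last steps, stood at 350.2, 359.8 and 348 RPM against 505 and 410.1 RPM (-0.37, SE 0.12, adjusted p = 0.025). CHO2, which encodes the first methyltransferase, stood at 324, 377 and 388 RPM against 440.0 and 418 RPM (-0.24, SE 0.09, adjusted p = 0.0389). These 3 calls were lost when single libraries were left out, which also leaves fewer cultures behind each difference. Without BY4741 library 4 none was called (CHO1 -0.16, adjusted p = 0.253; OPI3 -0.22, adjusted p = 0.247; CHO2 -0.21, adjusted p = 0.168), and none was called without ume6Δ library 1 (adjusted p = 0.0623, 0.0552 and 0.135). OPI3 was also not called without ume6Δ library 3 (adjusted p = 0.06), and CHO2 not without ume6Δ library 2 (adjusted p = 0.0527) or BY4741 library 5 (adjusted p = 0.0853), nor with no filter on low genes (adjusted p = 0.0544). Against BY4741 of series 1 the direction of CHO2 turned (0.35, adjusted p = 0.00132). PSD1, the mitochondrial phosphatidylserine decarboxylase gene between these steps, was at -0.13 (adjusted p = 0.175). ITR1, the main inositol transporter gene, was at 0.09 (95% interval -0.19 to 0.38), and INM1, an inositol monophosphatase gene that acts after INO1, was at 0.00 (95% interval -0.16 to 0.17).

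**Figure D2:**
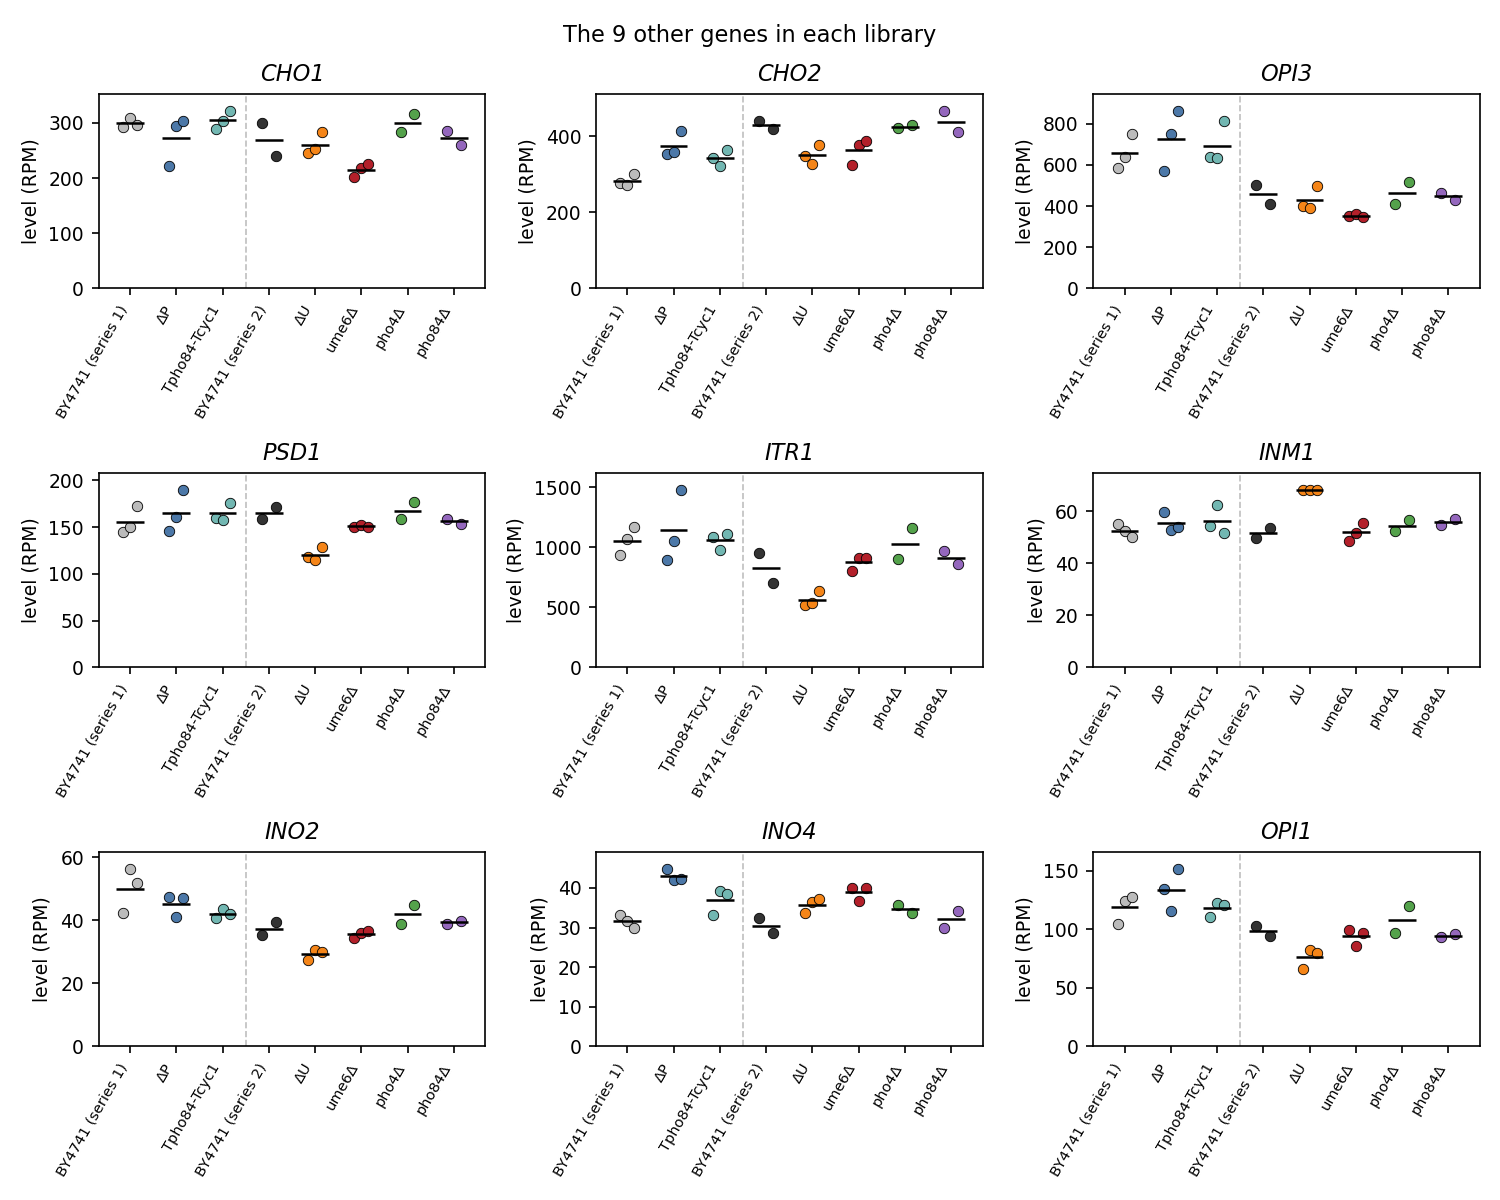
Level of the 9 members other than INO1 in each library, in RPM on linear axes from 0, with 1 point per library, a bar at each strain's mean and a dashed line between the series. In ΔU the points of PSD1, ITR1 and OPI1 lie below, and those of INM1 above, both BY4741 points of series 2; OPI3 and CHO2 differ between the BY4741 points of the 2 series.

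In ΔU most members were lower than in BY4741 of series 2. INO1, CHO2, ITR1, INO2, OPI1 and PSD1 fell, INM1 rose, and CHO1, OPI3 and INO4 were not called. The 6 members called lower stand beside 13.2% of 5840 genes called lower, 1 called higher beside 36.5%, and the 7 called in either direction beside 49.7%. The groups did not overlap in 8 members, beside 59.7% of genes. The median log2 difference was -0.32 for the members and 0.15 over all genes tested. The latter shift became 0.02 with RPM rescaled by TMM, which turned the split over all genes from 2133 higher and 771 lower to 1360 and 1396. With that scaling the members' median was -0.45 and the same numbers of members were called, 6 lower and 1 higher.

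PSD1 showed the most stable fall in ΔU, at 118, 114 and 128 RPM against 158 and 172 RPM in BY4741. No ΔU library reached the BY4741 values (log2 difference -0.46, SE 0.07, adjusted p = 0.000146), and the call held in all 12 alternatives. ITR1 stood at 517, 538 and 638 RPM against 957 and 705 RPM (-0.55, SE 0.13, adjusted p = 0.00388), again without overlap. CHO2 was at 348, 327 and 377 RPM against 440.0 and 418 RPM (-0.29, adjusted p = 0.0112), but higher against BY4741 of series 1 (0.30, adjusted p = 0.00394). Both regulators INO2 (27.3, 30.7 and 30.0 RPM against 35.2 and 39.5 RPM; -0.34, adjusted p = 0.00704) and OPI1 (66.4, 82.8 and 80.1 RPM against 102 and 94.6 RPM; -0.37, adjusted p = 0.011) fell, with every ΔU library below both controls. Without BY4741 library 4, however, INO1, CHO2, ITR1 and OPI1 were not called (adjusted p = 0.0983, 0.0733, 0.0797 and 0.0787), leaving 4 members called where 7 were, with INO4 now among them (0.31, adjusted p = 0.0338). Without BY4741 library 5 INO2 was not called (-0.26, adjusted p = 0.0777). INO4 was at 0.22 (adjusted p = 0.0588) with all libraries and was also called without ΔU library 1 (0.27, adjusted p = 0.0371). CHO1 was at -0.04 (95% interval -0.25 to 0.16) and OPI3 at -0.09 (95% interval -0.34 to 0.16).

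INM1 went the other way from INO1 in ΔU. It stood at 68.1, 68.1 and 68.0 RPM in ΔU against 49.8 and 53.7 RPM in BY4741, and no library of any other strain reached the ΔU level. The log2 difference was 0.39 (SE 0.08, adjusted p = 0.00088 in limma), called in all 12 alternatives with values from 0.25 to 0.44.

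**Figure D3:**
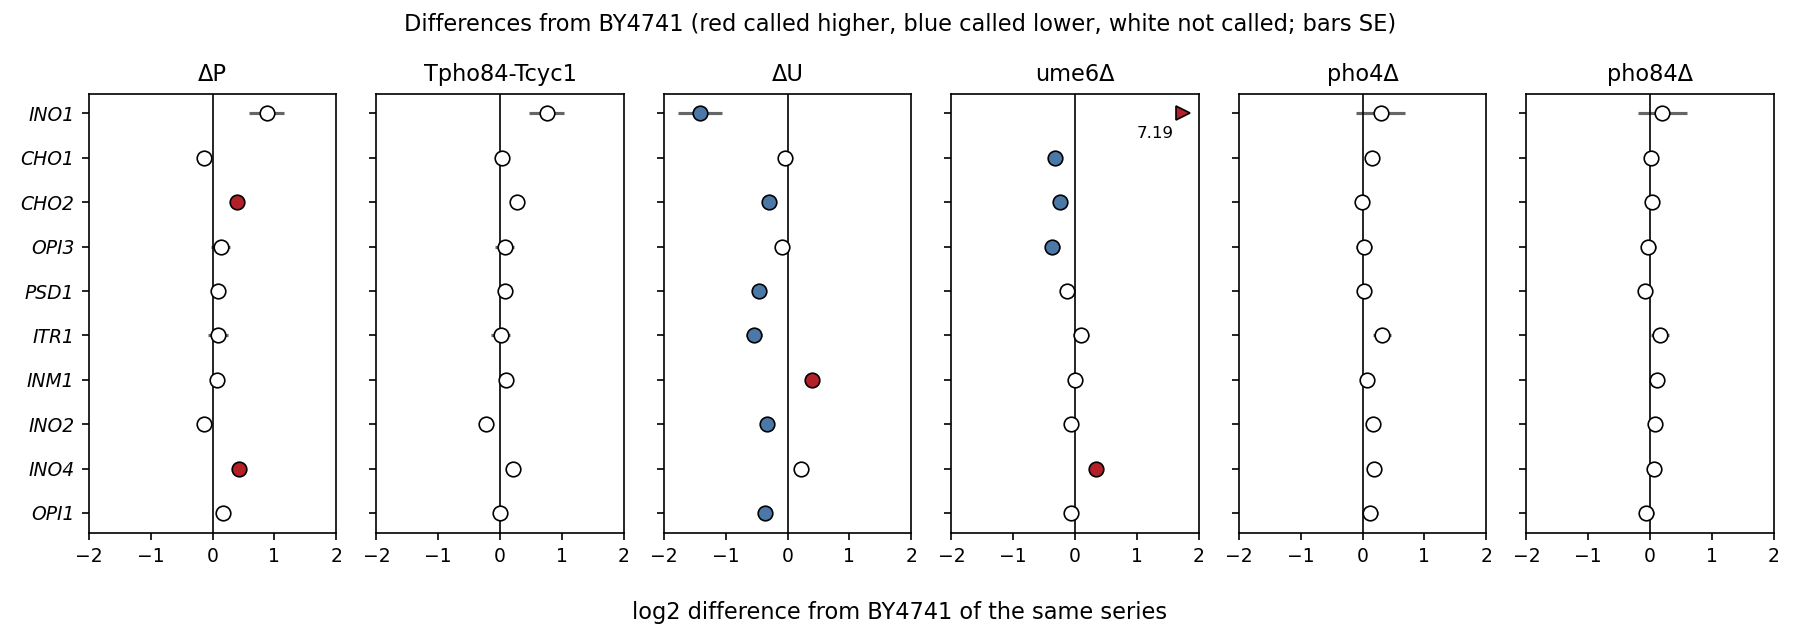
Log2 difference of each member from BY4741 of the same series, in 6 panels by strain, with bars of 1 SE. Red points are called higher, blue points lower, and white points are not called; the arrow for INO1 in ume6Δ stands for 7.19, beyond the axis. Panels of 1 series share their BY4741 libraries.

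ΔP and Tpho84-Tcyc1 were compared with the same 3 BY4741 libraries, so their differences are not independent. In ΔP, CHO2 and INO4 were called higher and the other 8 members were not called, or 2 of 10 beside 9.47% of 5775 genes (5.8% higher). The groups did not overlap in 3 members, beside 26.4% of genes. CHO2 stood at 354, 358 and 415 RPM against 278, 272 and 301 RPM in BY4741, with no overlap (log2 difference 0.40, SE 0.09, adjusted p = 0.0222). INO4 stood at 44.7, 42.0 and 42.2 RPM against 33.3, 31.8 and 29.8 RPM, also with no overlap (0.43, SE 0.09, adjusted p = 0.0157). Neither was called without BY4741 library 2 (CHO2 adjusted p = 0.123, INO4 adjusted p = 0.0849) or library 3 (adjusted p = 0.052 and 0.0617). CHO2 was also not called without BY4741 library 1 (adjusted p = 0.0695) or ΔP library 3 (adjusted p = 0.0813) or in a fit of the 2 groups alone (adjusted p = 0.0733), and was lower in ΔP than in BY4741 of series 2 (-0.20, adjusted p = 0.126, not called). The uncalled members other than INO1 lay between -0.15 (CHO1) and 0.17 (OPI1). Members had a median of 0.11, against 0.06 over all genes, of which 335 were higher and 212 lower (223 and 304 with TMM). Over all genes the number called was 547 but 62 without BY4741 library 2, 285 without library 1, 143 without library 3, 123 without ΔP library 3 and 1867 without ΔP library 2.

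In Tpho84-Tcyc1 none of the 10 members was called, beside 7.97% of 5775 genes, and the groups did not overlap in 3, beside 42.9%. INO1, CHO2 and INO4 had an unadjusted p under 0.05, edgeR called 0 members and DESeq2 called 1, INO2 (-0.31, adjusted p = 0.0394). CHO2 stood at 342, 322 and 363 RPM, above all 3 BY4741 libraries (log2 difference 0.27, SE 0.09, adjusted p = 0.0919 in limma), and INO4 at 33.3, 39.1 and 38.3 RPM (0.22, SE 0.09, adjusted p = 0.159). The interval of CHO1 was -0.22 to 0.27 and that of ITR1 -0.33 to 0.35. Members had a median of 0.08, against 0.06 over all genes, of which 255 were higher and 205 lower (160 and 324 with TMM). Over all genes 460 were called, but 86 and 140 without BY4741 library 2 and 3, and 153, 215 and 103 without Tpho84-Tcyc1 library 1, 2 and 3.

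In pho4Δ and pho84Δ none of the 10 members was called either, beside 0.223% and 0.291% of 5840 genes, and edgeR and DESeq2 called 0 in both. The groups did not overlap in 1 member each, INO4 in pho4Δ and INM1 in pho84Δ, beside 41.4% and 45.3% of genes. At an unadjusted p under 0.05 there was 1 member in pho4Δ, ITR1, and 0 in pho84Δ. ITR1 stood at 904 and 1158 RPM in pho4Δ against 957 and 705 RPM in BY4741 (log2 difference 0.32, SE 0.15, adjusted p = 0.431), and the groups overlap. With 2 libraries on each side the intervals were wide for INO1, -0.55 to 1.14 in pho4Δ and -0.65 to 1.04 in pho84Δ, and narrower for PSD1, -0.15 to 0.19 and -0.24 to 0.09. OPI3 and INM1, which hold the Pho4 site, were at 0.02 (95% interval -0.25 to 0.29) and 0.07 (-0.11 to 0.25) in pho4Δ. Over all genes 13 were called in pho4Δ, but 63 and 7 without BY4741 library 4 and 5, and 39 and 6 without pho4Δ library 1 and 2. In pho84Δ 17 were called, but 171 without BY4741 library 4 and 11 without pho84Δ library 2. Leaving out any of these libraries gave 0 members called.

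Compared directly, ume6Δ and ΔU differed in 8 of the 10 members, where 48.8% of 5840 genes were called (20.1% higher and 28.7% lower in ume6Δ). The same number, 8, did not overlap between the strains, beside 55.9% of genes. For INO1 the log2 difference was 8.61 (SE 0.32, adjusted p = 5.01e-11 in limma). ITR1 was higher too, at 806, 913 and 911 RPM against 517, 538 and 638 RPM (0.64, SE 0.12, adjusted p = 0.000524), and the groups do not overlap. PSD1 (0.33, adjusted p = 0.000685), INO2 (0.28, adjusted p = 0.0122) and OPI1 (0.30, adjusted p = 0.0174) were also higher, while INM1 (-0.39, adjusted p = 0.000358), CHO1 (-0.27, adjusted p = 0.0157) and OPI3 (-0.27, adjusted p = 0.0412) were lower. The split over all genes was 1174 higher and 1677 lower, or 1627 and 1188 with TMM, and with TMM the members' split of 5 higher and 3 lower became 6 and 1. CHO1 and OPI3 were then not called (adjusted p = 0.0808 and 0.17) and INO4 was (0.21, adjusted p = 0.0445). Without ume6Δ library 1, CHO1, OPI3 and OPI1 were not called (adjusted p = 0.0647, 0.089 and 0.0659). CHO1 was also not called without ΔU library 3 (adjusted p = 0.074), and OPI1 not without ume6Δ library 3 or ΔU library 1 (adjusted p = 0.0585 and 0.0772). OPI3 was not called without ume6Δ library 2, ume6Δ library 3 or ΔU library 3 (adjusted p = 0.073, 0.0956 and 0.203), nor with no filter on low genes (adjusted p = 0.069).

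The BY4741 cultures of the 2 series differed in 3 members, beside 37.1% of 5927 genes (18.2% higher and 18.9% lower in series 2), and did not overlap in 4, beside 60.4%. CHO2 was higher in series 2 (440.0 and 418 RPM against 278, 272 and 301 RPM; log2 difference 0.60, SE 0.09, adjusted p = 1e-04 in limma), and OPI3 (-0.52, adjusted p = 0.0137) and INO2 (-0.40, adjusted p = 0.00579) were lower. OPI3 was not called without BY4741 library 5 (-0.37, adjusted p = 0.182) or library 3 (-0.43, adjusted p = 0.0614), and INO2 not without library 4 (-0.32, adjusted p = 0.0727). Strains of different series were therefore not tested against each other except where the other series' BY4741 served as an alternative control. Series and strain cannot be told apart there, nor where levels of both series are set side by side, as in the order of INO1 levels. Per kilobase of coding length, the mean level in BY4741 of series 1 was highest for OPI3 (1059 RPM per kb) and ITR1 (602), followed by CHO1 (360.4), CHO2 (109), PSD1 (104), OPI1 (97.8), INO4 (69.3), INM1 (59.2), INO2 (54.7) and INO1 (15.8). INO1 was lowest of the 10 in series 2 as well (24.3 RPM per kb), while in ume6Δ it reached 3355 RPM per kb, above OPI3 at 568.

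Within strains, cultures with more INO1 also held more of several other members. The library with the highest INO1 was also the highest for CHO1, OPI3 and ITR1 in 7 of the 8 groups, for CHO2 and PSD1 in 6, for OPI1 in 3, for INO2 and INO4 in 2 and for INM1 in 1. Over the 5926 other genes tested, 1.18% shared the highest library with INO1 in at least 7 groups and 6.6% in at least 6. For at least 3, 2 and 1 groups the shares were 62.7%, 85.4% and 97.5%. The library lowest in INO1 was also the lowest for CHO1 in 8 groups, for ITR1 in 7, for CHO2, OPI3, INO2, OPI1 and PSD1 in 5, for INO4 in 3 and for INM1 in 2. Over the other genes 0.287% shared the lowest library in all 8 groups, 2.01% in at least 7 and 28% in at least 5. For at least 3 and 2 groups the shares were 75.9% and 91.4%. In ΔP, for example, the libraries with 29.9, 45.2 and 74.5 RPM of INO1 held 899, 1056 and 1477 RPM of ITR1 and 570.3, 753 and 861 RPM of OPI3. Each group has only 2 or 3 cultures, so these counts are a description with no test. In groups of 2 cultures, sharing the highest library is the same as sharing the lowest. The counts of highest and lowest libraries therefore partly repeat each other. The library highest in INO1 was the deepest of its group in 1 and the shallowest in 4 of the 8 groups, and the part of depth in this was not tested.

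**Figure D4:**
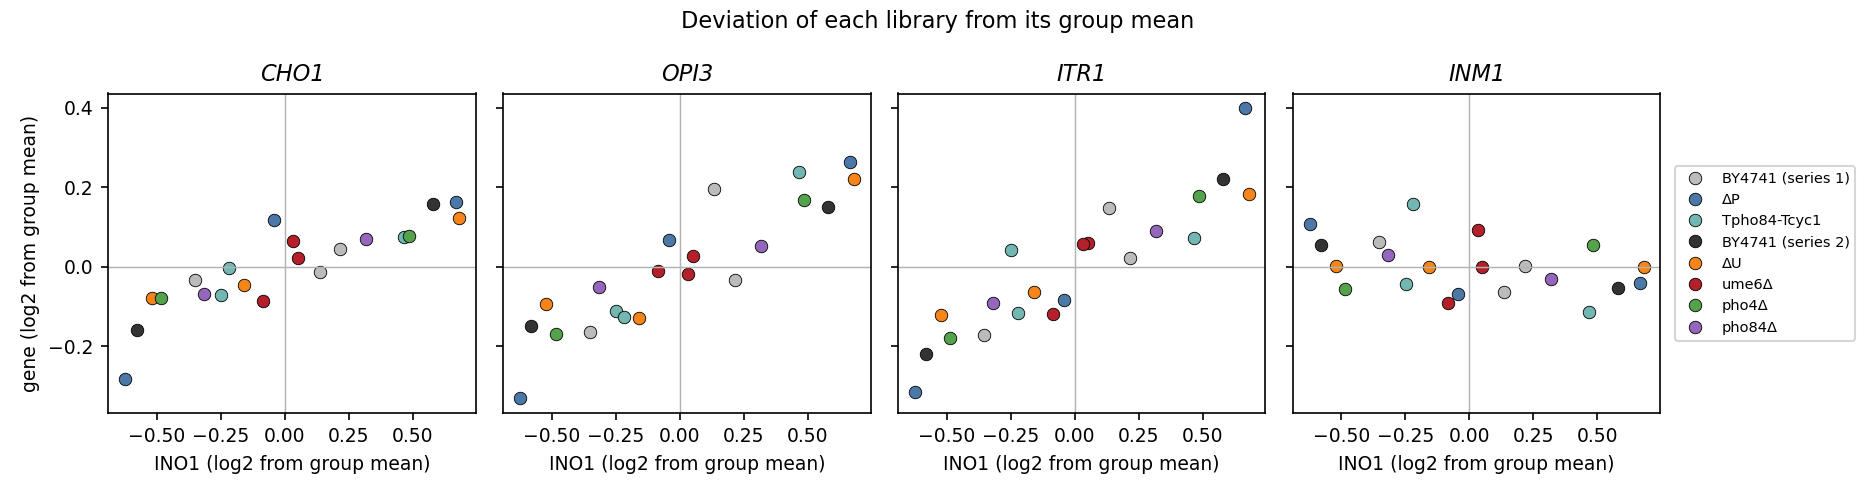
Deviation of each library from the mean of its group, on the log2(RPM + 1) scale, for CHO1, OPI3, ITR1 and INM1 (vertical axes) against INO1 (horizontal axes), with 1 point per library coloured by strain. For CHO1, OPI3 and ITR1 the libraries above their group mean in INO1 lie mostly above it on the vertical axis too; INM1 shows no such order.

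The genes whose profile over the 8 groups was most like that of INO1 were sought among the 5926 other genes, by the root mean square difference of centred group means on the log2(RPM + 1) scale. They were PHO92, a reader of methylated RNA (0.68), SAE3, a strand-exchange factor of meiosis (0.73), SLZ1, a subunit of the RNA methylation complex (0.75), HOP2, of homologous pairing (0.82), and HED1, a regulator of meiotic recombination (0.86). The other members, which lack a rise of that size in ume6Δ, were at 2.43 (INO4) to 2.67 (OPI3). The centred mean of INO1 in ume6Δ was 6.39, so the measure follows mostly that 1 group. A gene without the rise scores far from INO1 whatever its other levels, so likeness between the other groups is not described. In ume6Δ the mean level was 94.6 ± 1.61 RPM for PHO92, 62.9 ± 9.65 for SAE3, 69.9 ± 4.07 for SLZ1, 113 ± 4.88 for HOP2 and 115 ± 2.71 for HED1 (n = 3 each). No library outside ume6Δ exceeded 2.46 RPM for any of them, whereas INO1 had 8.62 to 74.5 RPM there. These genes were chosen for their pattern, so their levels are a description with no test. PHO92, SAE3 and SLZ1 stayed under 1 RPM in every other library and so passed the filter on low genes through ume6Δ alone. The URS1 core lay in the 500 bases upstream of each, and the UASINO core in none of the 5, which is likewise a description of genes chosen by their pattern. The bases around the core of PHO92 and SLZ1 are shown as examples of its 2 orientations, with the core in capitals.
PHO92 URS1 core, chrIV:1224607-1224633: gatgtacctcGGCGGCTaatctttttg
SLZ1 URS1 core, chrXIV:271291-271317: caatatgaatAGCCGCCgaaattatgc

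**Figure D5:**
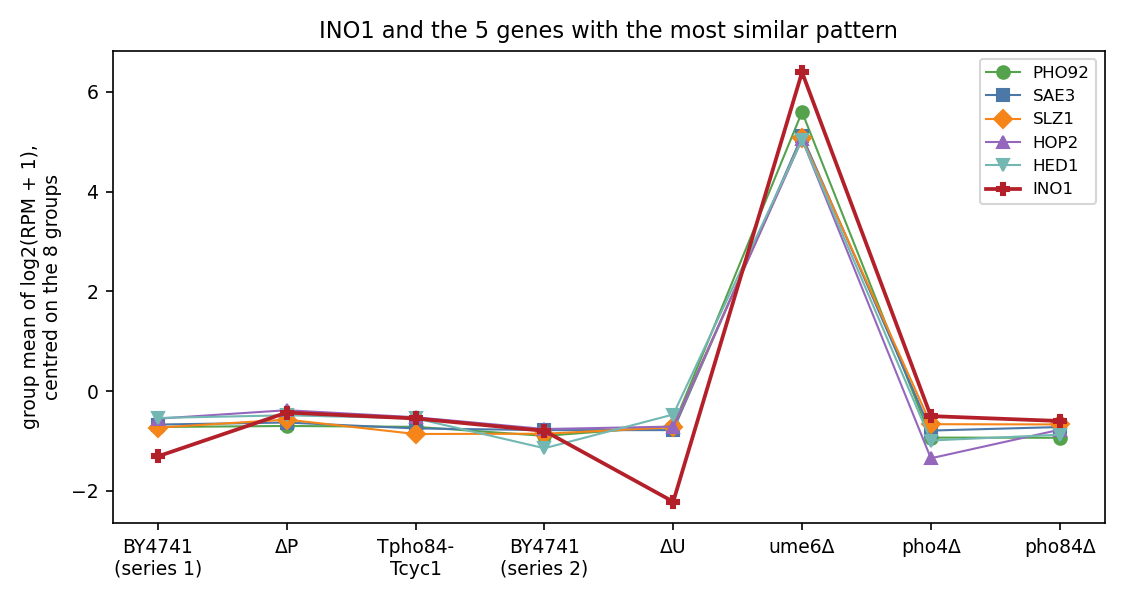
Group means of log2(RPM + 1), each gene centred on its mean over the 8 groups, for INO1 and the 5 genes with the most similar profile. All 6 lines peak at ume6Δ; between the other groups INO1 varies more than the other genes, with its lowest value in ΔU.

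Further genes of phospholipid metabolism, 37 in 6 lists, were called at rates near those of all genes or below them in the comparisons of ume6Δ and ΔU with BY4741. In ΔU 13 rose, 6 fell and 18 were not called, beside 36.5% of all genes called higher and 13.2% lower, with a median log2 difference of 0.14 (0.15 over all genes). In ume6Δ 6 rose, 3 fell (UME6 itself among them) and 28 were not called, beside 23.1% of all genes called higher and 11.3% lower, with a median of 0.06 (0.04 over all genes). In ΔP 1 was higher, beside 5.8% of all genes. In Tpho84-Tcyc1, pho4Δ and pho84Δ 0 were called, beside 7.97%, 0.223% and 0.291% in either direction. The gene called in ΔP was CKI1 of choline kinase (92.2 ± 10.5 against 67.2 ± 2.37 RPM; 0.44, adjusted p = 0.0178). It was not called without ΔP library 3 (adjusted p = 0.0706) or BY4741 library 1, 2 or 3 (adjusted p = 0.054, 0.0958 and 0.0505).

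In the cardiolipin list CLD1, a phospholipase gene acting on cardiolipin, rose in both mutants, from 7.56 ± 1.09 RPM in BY4741 of series 2 to 24.6 ± 3.45 RPM in ΔU (log2 difference 1.58, adjusted p = 2.61e-06) and 21.1 ± 1.76 RPM in ume6Δ (1.37, adjusted p = 3.98e-06). Both comparisons use the same BY4741 libraries. TAZ1, a cardiolipin acyltransferase gene, rose in ΔU (0.47, adjusted p = 0.000272). It was called in ume6Δ (0.22, adjusted p = 0.0404), but not without ume6Δ library 1 or 2 (adjusted p = 0.0563 and 0.16) or BY4741 library 4 or 5 (adjusted p = 0.15 and 0.0768), nor with TMM (adjusted p = 0.103). TAM41, which makes CDP-diacylglycerol in mitochondria, was called in ΔU (0.23, adjusted p = 0.0229), but not without ΔU library 2 (adjusted p = 0.0653) or BY4741 library 5 (adjusted p = 0.145), nor with TMM (adjusted p = 0.276). The counts in this list of 6 were 3 higher in ΔU, beside 36.5% of all genes, and 2 higher in ume6Δ, beside 23.1%, and 1 of each is the call lost with TMM.

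Phosphatidic acid genes, a list of 11, showed 6 higher and 1 lower in ΔU, beside 36.5% and 13.2% of all genes, and 3 higher in ume6Δ, beside 23.1%. GPT2, a glycerol 3-phosphate acyltransferase gene, stood at 52.8 ± 0.913 RPM in BY4741, 86.4 ± 4.99 RPM in ΔU (0.70, adjusted p = 7.2e-06) and 71.6 ± 4.18 RPM in ume6Δ (0.43, adjusted p = 0.000412). Its paralog SCT1 rose in ume6Δ (0.46, adjusted p = 3.4e-05). DGK1, the diacylglycerol kinase gene, rose in ΔU (0.46, adjusted p = 0.000458) and in ume6Δ (0.32, adjusted p = 0.00818), the latter not called without BY4741 library 4 (adjusted p = 0.0553). SPO7, a subunit of the phosphatase that activates Pah1, rose in ΔU (0.46, adjusted p = 0.00251), but turned direction against BY4741 of series 1 (-0.11, adjusted p = 0.408). Against that control DGK1 was not called in ΔU (0.05, adjusted p = 0.617) and turned direction in ume6Δ (-0.0905, adjusted p = 0.356).

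Among the 8 genes of the Kennedy route and uptake, 2 rose and 2 fell in ΔU, beside 36.5% and 13.2% of all genes, and 1 fell in ume6Δ, beside 11.3%. HNM1, the choline transporter gene, fell from 250.4 ± 24.2 to 162 ± 10.8 RPM in ΔU (-0.63, adjusted p = 8.6e-05). PCT1, of the rate-limiting step of that route, rose (0.38, adjusted p = 0.000578), as did DPL1, a lyase that feeds it (0.42, adjusted p = 0.000985). Neither of these 2 was called against BY4741 of series 1 (PCT1 0.16, adjusted p = 0.101; DPL1 0.11, adjusted p = 0.275). ECT1, of the matching ethanolamine step, was called lower in ume6Δ (-0.22, adjusted p = 0.0407), but not without ume6Δ library 1 or 2 (adjusted p = 0.128 and 0.0629) or BY4741 library 5 (adjusted p = 0.339).

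In fatty acid synthesis FAS1 and FAS2, the subunits of the synthase, fell in ΔU (-0.46, adjusted p = 0.000421, and -0.45, adjusted p = 0.000141), and 0 of the 3 genes were called in ume6Δ. With BY4741 of series 1 as the control FAS1 and FAS2 turned direction in ΔU (0.21 and 0.05, not called). Among the 5 other genes of the CDP-diacylglycerol route and inositol, INM2, the second inositol monophosphatase gene, rose in ΔU (46.6 ± 2.19 against 34.3 ± 0.0889 RPM; 0.43, adjusted p = 0.000375) as INM1 did. CDS1, the CDP-diacylglycerol synthase gene, fell in ΔU (-0.33, adjusted p = 0.0064), but was not called without BY4741 library 4 (-0.20, adjusted p = 0.104). PIS1, which encodes the phosphatidylinositol synthase, was higher in ΔU (0.25, adjusted p = 0.0201) and lower in ume6Δ (-0.27, adjusted p = 0.0213). Its ΔU call was lost with TMM (0.11, adjusted p = 0.311), without ΔU library 1 (adjusted p = 0.0591) and without BY4741 library 4 (adjusted p = 0.108), and its ume6Δ call without ume6Δ library 2 or 3 (adjusted p = 0.0527 and 0.0845) or BY4741 library 5 (adjusted p = 0.135). ITR2, the minor inositol transporter gene, was called higher in ume6Δ (0.17, adjusted p = 0.0467), but not without ume6Δ library 1, 2 or 3 (adjusted p = 0.0623, 0.106 and 0.12) or BY4741 library 5 (adjusted p = 0.265), nor with TMM (adjusted p = 0.0998). In the list of the Opi1 tether and corepressor genes, SCS2, SIN3 and RPD3 were called in neither strain.

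Set against ΔU directly, ume6Δ had 10 of the 37 further genes higher, 12 lower (the deleted UME6 among them) and 15 not called, beside 20.1% of all genes higher and 28.7% lower, with a median log2 difference of -0.10 (-0.06 over all genes). All 3 fatty acid synthesis genes were higher, FAS1 at 0.58 (adjusted p = 1.58e-05), FAS2 at 0.56 (adjusted p = 4.99e-06) and ACC1, the acetyl-CoA carboxylase gene, at 0.51 (adjusted p = 0.00101). HNM1 (0.63), EPT1 and CKI1 of the Kennedy route (0.37 and 0.36), SCT1 (0.42) and CDS1 (0.27) were higher too. PIS1 (-0.52, adjusted p = 4.61e-05), INM2 (-0.38), SPO7 (-0.51) and DPP1, a lipid phosphatase gene (-0.37), were lower. These 12 genes were called in all 13 alternatives. The cardiolipin genes GEP4 (-0.40, adjusted p = 0.025), CRD1 (-0.31, adjusted p = 0.0285) and TAZ1 (-0.24, adjusted p = 0.0101) and the histone deacetylase gene RPD3 (-0.21, adjusted p = 0.0201) were called lower, but not with TMM (adjusted p = 0.0913, 0.117, 0.0865 and 0.118). TAZ1 was also not called without ume6Δ library 3 (adjusted p = 0.0511) and GEP4 not without ume6Δ library 2 or 3 or ΔU library 1 (adjusted p = 0.0757, 0.0975 and 0.112). CRD1 was not called without ume6Δ library 1 or 3 or ΔU library 1 or 2 (adjusted p = 0.0651, 0.111, 0.116 and 0.0676), and RPD3 not without ume6Δ library 1 or 2 or ΔU library 2 (adjusted p = 0.0751, 0.0654 and 0.0872).

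Between the BY4741 cultures, 6 of the 37 were higher and 9 lower in series 2, beside 18.2% and 18.9% of all genes. The fatty acid genes FAS1 (0.67), ACC1 (0.65) and FAS2 (0.51) and the corepressor gene SIN3 (0.56) were higher, and SPO7 (-0.57), SLC1 (-0.52), EPT1 (-0.48) and DGK1 (-0.41) lower, in all 10 alternatives. Of the others named by the same rule, PSD2 was at 0.33, CDS1 at -0.35, PIS1 at -0.32, DPL1 at -0.31, SCS2 at -0.24 and RPD3 at -0.23. Each of these 6 lost its call without at least 1 BY4741 library: PSD2, PIS1, DPL1 and RPD3 without library 4 (adjusted p = 0.14, 0.115, 0.138 and 0.117) and CDS1 and SCS2 without library 5 (adjusted p = 0.23 and 0.171). PIS1 and RPD3 were also not called without library 5 (adjusted p = 0.0615 and 0.0727) or 1 (0.0526 and 0.0728), RPD3 not without library 2 (adjusted p = 0.0796), and CDS1, DPL1 and SCS2 not without library 3 (adjusted p = 0.078, 0.0708 and 0.0842).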

How the data were processed

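The deposited table holds RPM, reads per 1000000 reads, for 7127 lines, 1 column per library made by the authors; 4 lines had no values and were not used here, and the sum of each column falls short of its full total by 110 to 163 RPM. The submitters' processing notes name HISAT2, featureCounts and edgeR. Versions, genome build, annotation and strand setting are not given in the sources used here. Every value was a whole multiple of the RPM of 1 read (100% within 0.01 reads), which gave reads and depth. Of the identifiers, 6044 were found in R64, the RefSeq build used for names, lengths and upstream sequences.

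BY4741 libraries 1 to 3 were placed in series 1 and 4 and 5 in series 2 by their numbers and the design text. limma 3.58.1 (R 4.3.3) was run on log2(RPM + 1), 1 fit per series and 1 fit of all 21 libraries for the BY4741 comparison, with trended empirical Bayes variances. Genes with at least 1 RPM in 3 libraries (series 1) or 2 libraries (other fits) were tested, and Benjamini-Hochberg adjusted p-values under 0.05 were called. Differences are on the log2(RPM + 1) scale, which understates those of low genes. The members and the 6 lists were chosen with earlier results of these data known. All members are named, with, in each comparison, the up to 3 called genes per list with the largest difference, and the 5 genes most like INO1. The fits were tested on simulated data, of which no result is given here.

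The alternatives were a pseudocount of 0.25 RPM, no filter, TMM scaling, edgeR 4.0.16 and DESeq2 1.42.0 on recovered reads (edgeR called 530 genes in ΔP, 508 in Tpho84-Tcyc1, 2761 in ΔU and 2143 in ume6Δ), only the 2 groups compared, BY4741 of the other series, a replicate block, and leaving out each library. Where that leaves 1 library in a group, its spread is taken from the other groups.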

Additional observations from a re-analysis of the deposited data

How the results depend on the processing

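INO1 in ume6Δ was called in all 12 alternatives (6.61 to 7.77) and INO1 in ume6Δ against ΔU in all 13 (8.34 to 8.95). Leaving out 1 library gave INO1 differences of 0.54 to 1.19 in ΔP, 0.52 to 0.88 in Tpho84-Tcyc1, -1.998 to -0.84 in ΔU, -0.28 to 0.88 in pho4Δ and -0.38 to 0.78 in pho84Δ. The number of members called ranged from 0 to 3 in ΔP (2 as reported), 4 to 8 in ΔU (7), 2 to 4 in ume6Δ (5) and 5 to 8 in ume6Δ against ΔU (8), and it was 0 in Tpho84-Tcyc1, pho4Δ and pho84Δ. With only the 2 groups compared 1 member was called in ΔP and 2 in Tpho84-Tcyc1, INO1 among the latter (0.76, adjusted p = 0.0163 in limma), and DESeq2 called 1 in Tpho84-Tcyc1. With BY4741 of the other series as the control 3 members were called in Tpho84-Tcyc1, 2 in pho4Δ and 4 in pho84Δ. That control turned CHO2 to -0.20 in ΔP, -0.33 in Tpho84-Tcyc1, 0.30 in ΔU, 0.35 in ume6Δ and 0.59 in pho4Δ. It also turned OPI3 in pho4Δ (-0.50), INO2 in pho84Δ (-0.33), PIS1 (-0.0647), SPO7 (-0.11), FAS1 (0.21) and FAS2 (0.0539) in ΔU, and DGK1 in ume6Δ (-0.0905). It differs from those strains in series as well as genotype.

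Replicate numbers were tested as a block though nothing shows that they pair cultures. The deviations of same-numbered libraries correlated at -0.06, 0.01 and 0.29 between ΔP and BY4741, at -0.23, 0.26 and 0.18 between Tpho84-Tcyc1 and BY4741, and at 0.10, 0.06 and -0.02 between ume6Δ and ΔU. With the replicate block 3 members were called in ΔP, 1 in Tpho84-Tcyc1 and 8 in ume6Δ against ΔU, and INO1 was called in ΔP (0.88, adjusted p = 0.0108) and Tpho84-Tcyc1 (0.76, adjusted p = 0.0213). Not every library correlated best with its own number.

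Over all genes the number called in ΔP was 547, but 349 with no filter, 910 with DESeq2, 144 with only the 2 groups and 1583 with the other control. In Tpho84-Tcyc1 it was 460, but 839 with DESeq2, 1325 with only the 2 groups and 2019 with the other control. In pho4Δ it was 13, but 8 with no filter or only the 2 groups, 71 with DESeq2 and 2144 with the other control; in pho84Δ 17, but 40, 11 and 2345 with DESeq2, only the 2 groups and the other control. In ume6Δ it was 2011 and 3462 with the other control, and between the BY4741 groups 2196 and 1313 without library 5. The cause of these shifts was not tested. Of 970 alternative values of single members, 824 kept direction and side of the threshold and 73 changed sign without being called in either setting. A further 42 lost and 24 gained the call, and 7 changed sign with a call in at least 1 of the settings. With 2 BY4741 libraries in series 2, calls of differences of the size seen for CHO1, CHO2 and OPI3 can be lost when 1 culture is left out.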
